A study of Mus musculus with 24 samples.

Results

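Cytosolic ribosomal protein genes encode the protein subunits of the ribosome that translates messenger RNA in the cytoplasm. Their probe sets were chosen by name alone. A probe set was taken where the platform annotation gave it a single gene symbol of the form Rpl or Rps followed by a number, Rplp followed by a number, or Rpsa. S6 kinases and symbols of numbered pseudogenes were left out. The rule found 100 probe sets of 48 genes, among 12393 genes that had a symbol of their own on the array. A further 102 probe sets list a ribosomal protein symbol together with other symbols and were not taken, so Rpl5 and Rps27a, among others, are not described here.

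The samples were retinal RNA of C57Bl/6 mouse pups on 24 oligonucleotide arrays, in 8 groups of 3. Pups kept in room air were sampled at postnatal days 7, 8, 10 and 12. Pups of the same ages had been in hyperoxia for 12, 24, 72 and 120 hours, so within hyperoxia a difference in age is also a difference in the length of exposure, and these cannot be told apart. The labels give neither the oxygen level nor the number of pups per array, and they do not say whether arrays of a group came from separate animals. All p-values therefore rest on the spread among arrays of a group, and part of that spread may be technical. In mice, hyperoxia in the second week of life halts the growth of retinal vessels.

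A cytosolic ribosome has a small subunit, which reads the messenger RNA and carries Rps proteins, and a large subunit, which forms the peptide bond and carries Rpl proteins. The proteins are needed in near equal numbers and their messenger RNAs are among the most abundant of the cell. Many of these messenger RNAs start with a C followed by an unbroken run of C and T letters, the 5′ terminal oligopyrimidine tract, through which the growth kinase complex mTORC1 controls their translation. Around the ages sampled, the retina changes from a tissue that still holds dividing progenitors to one of maturing neurons and Müller glia.

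Sequences at the transcription start were searched for runs of C and T letters. Start windows from RefSeq (assembly GRCm38.p6) were found for 42 of the 48 genes and give 50 starts. The sequences printed here belong to the genes with the clearest falls with age that have a start in that table, and are shown because some hold such a run at the start and others do not. Each runs 5′ to 3′ on the gene's strand, from 10 bases before the start through the first 20 transcribed bases. Capitals mark a run of at least 8 C or T letters that touches the 5 bases on either side of the start.
Rps6, chr4:86857348-86857377, minus strand: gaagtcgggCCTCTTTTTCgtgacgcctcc
Rps27l, chr9:66946076-66946105, plus strand: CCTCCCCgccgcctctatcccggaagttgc
Rps19, chr7:24884582-24884611, plus strand: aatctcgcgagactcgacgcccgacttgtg
Rpl13a, chr7:45128726-45128755, minus strand: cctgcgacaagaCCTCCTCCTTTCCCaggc
Rps9, chr7:3704031-3704060, plus strand: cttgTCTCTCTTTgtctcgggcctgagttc
Rps10, chr17:27635225-27635254, minus strand: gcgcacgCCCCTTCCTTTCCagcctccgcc
Rpl35, chr2:39005112-39005141, minus strand: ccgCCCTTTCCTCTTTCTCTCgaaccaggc
Rps26, chr10:128626487-128626516, minus strand: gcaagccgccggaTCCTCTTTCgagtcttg
Rps28, chr17:33824543-33824572, minus strand: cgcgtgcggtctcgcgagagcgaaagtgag

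The run was 18 letters long in Rpl35, 14 in Rpl13a, 13 in Rps10 and 10 in Rps6. In Rps27l it is 9 letters long, begins before the printed window and ends before the start, so it is not part of the transcript from that start. Rps27l has 2 starts in the table and Rps19 has 3, and the first listed is shown. In Rps19 and Rps28 the longest run at the listed start was 4 letters, so no capitals appear. The listed starts are annotated ones and were not measured in these samples. Over all starts of the ribosomal protein genes, 18 of 50 (36.0%) had such a run, against 9.38% of 32851 mouse starts in the same table. Among short motifs searched on both strands from 250 bases before to 50 bases after the start, CCGGAAG, the core bound by ETS factors, was found at 42.0% of these starts and 8.86% of all. AAGATGG, bound by YY1, was found at 14.0% and 6.34%, GGGCGG, bound by Sp1, at 52.0% and 35.7%, and TATAAA at 12.0% and 13.6%. The first 2 of these motifs can overlap by the letters AAG. A match of letters does not show that a factor binds there.

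Of the 100 probe sets, 86 of 46 genes had a mean above the filter on dim signals and were tested. They include 36 of the large subunit, 40 of the small subunit, 2 of the P stalk, 1 of the particle that carries 5S ribosomal RNA, and 7 of duplicated-gene paralogs. On the log2 intensity scale, the mean over 24 arrays ranged from 7.10 to 15.01, and 59 of the 100 probe sets lay above the 95th percentile of all means on the array. Rpl41 (1455578_x_at) had a mean of 15.01, Rps29 (1415833_x_at) 14.80 and Rpl7a (1422613_a_at) 14.70. The intensity of a probe set depends on its probes as well as on its RNA, so these values give no order of the genes.

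The 14 probe sets under the filter included 4 that sat at the floor of 7.10 on all 24 arrays, 2 of Rps18, 1 of Rps4x and 1 of Rpsa, although each of these genes had another, bright probe set. Rpl3l and Rpl39l, relatives of Rpl3 and Rpl39 known from muscle and testis, had no tested probe set. In the array's naming, 40 of the 100 probe sets end in _x_at, which marks probes that may also match other transcripts. Ribosomal protein genes have many processed pseudogenes of near-identical sequence, and a probe set that ends this way cannot separate a gene from such copies.

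From day 7 to day 12 part of the ribosomal protein probe sets fell and none rose. With room air and hyperoxia averaged, 34 of 86 (39.5%) fell, 0 rose and 52 did not pass, at a Benjamini-Hochberg adjusted p under 0.05 in limma's fit over all 15838 tested probe sets. Of all probe sets tested, 11.6% fell by the same rule. The 34 came from 23 genes. The median difference over the 86 was -0.19 on the log2 scale, a decrease of 12.4%, against -0.03 over all tested probe sets. The quartiles were -0.30 and -0.10 and the range was -0.61 to 0.16. The difference was negative in 80 of 86 (93.0%), against 55.5% of all probe sets.

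**Figure D1:**
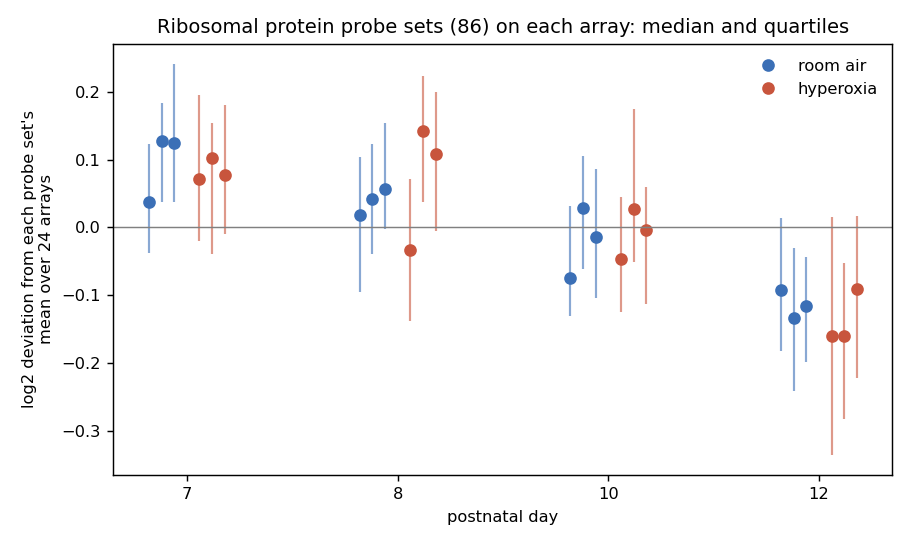
Each point is 1 array: the median, over 86 ribosomal protein probe sets, of the log2 deviation from that probe set's mean over 24 arrays, with bars to the quartiles, by postnatal day and condition. The day 7 arrays lie between 0.04 and 0.13 and the day 12 arrays between -0.16 and -0.09.

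The median deviation of the ribosomal protein probe sets from their own means was 0.04 to 0.13 on the 6 arrays of day 7, -0.03 to 0.14 at day 8, -0.08 to 0.03 at day 10 and -0.16 to -0.09 at day 12. Days 7 and 12 do not overlap, while day 8 overlaps both day 7 and day 10. For 20 probe sets every day 12 array lay below every day 7 array, which held for 4.99% of all tested probe sets. All 20 were among the 34 that fell. Most falls named below, in each comparison, were picked among called probe sets with such separation, so it follows from the choice. In bulk retina, fewer cells with a high ribosome content and less RNA per cell cannot be told apart.

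**Figure D2:**
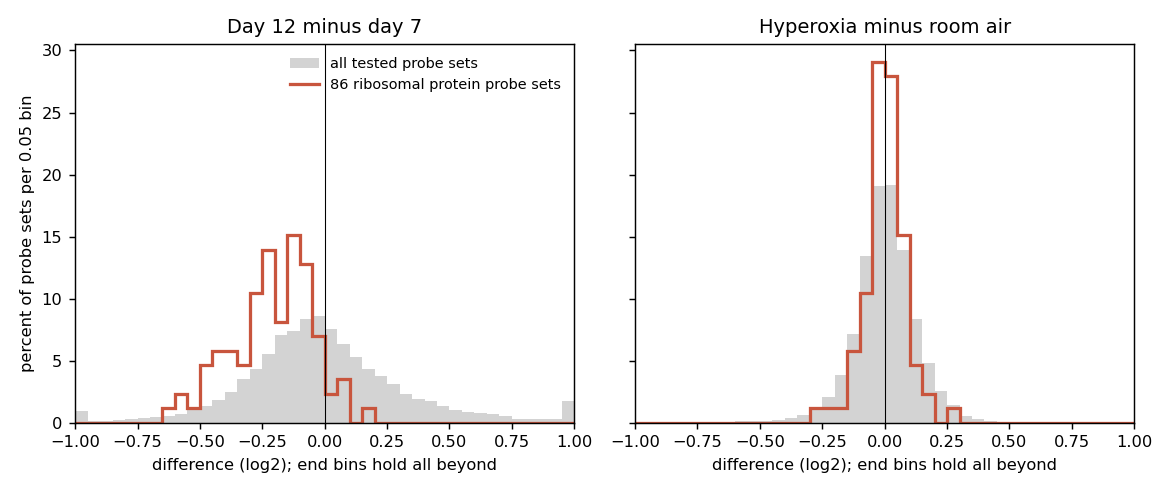
Distribution of log2 differences, in percent of probe sets per bin of 0.05, for all 15838 tested probe sets (grey) and the 86 ribosomal protein probe sets (red line); left, day 12 minus day 7; right, hyperoxia minus room air averaged over 4 days. At left the red line is displaced below 0, with a median of -0.19, and at right it is centred on 0 and narrower than the grey distribution.

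The largest difference with age among the ribosomal protein probe sets was that of Rps6. This protein of the small subunit, the substrate of the S6 kinases, is read by probe set 1416142_at, which was 9.74, 9.72 and 9.95 on the room air arrays of day 7 and 9.94, 9.69 and 9.77 on the hyperoxia arrays of day 7. At day 12 it was 9.42, 9.22 and 9.36 in room air and 8.86, 8.89 and 9.41 in hyperoxia. All 6 day 12 arrays lay below all 6 of day 7, and 2 of the hyperoxia arrays of day 12 were the lowest of all. Rps6 fell by 0.61 ± 0.10 (SE) on the log2 scale (adjusted p = 8.68e-05, limma), so its intensity fell by 34.4%. The second tested probe set of Rps6 (1453466_at) did not follow: its difference was 0.10 ± 0.18 (adjusted p = 0.753), and with the mean of both probe sets the Rps6 difference was -0.25 (adjusted p = 0.102).

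Rps26 lines the channel through which messenger RNA leaves the small subunit. Its probe set was 14.24, 14.19 and 14.34 in room air and 14.11, 14.16 and 14.13 in hyperoxia at day 7. At day 12 it was 13.82, 13.84 and 13.78 in room air and 13.80, 13.96 and 13.77 in hyperoxia. The groups of the 2 ages are far apart relative to their spread, with day 8, at 14.08 to 14.22, overlapping day 7, and day 10, at 14.00 to 14.09, below all of day 7. Rps26 fell by 0.37 ± 0.05, with the lowest adjusted p of the ribosomal protein probe sets (5.26e-05, limma).

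Rps9 (1433689_s_at), an early-binding protein in assembly of the small subunit, was 14.05, 14.10 and 14.08 in room air and 14.02, 14.08 and 13.92 in hyperoxia at day 7. At day 12 it was 13.55, 13.68 and 13.73 in room air and 13.36, 13.58 and 13.69 in hyperoxia. No array of day 12 reached the level of day 7, and the fall was 0.44 ± 0.07 (adjusted p = 6.98e-05, limma). A second probe set of Rps9 (1434624_x_at) fell by 0.48 ± 0.11.

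Rps19, the gene most often mutated in Diamond-Blackfan anaemia, was 13.10, 13.20 and 13.10 in room air and 13.33, 13.09 and 13.15 in hyperoxia at day 7. At day 12 it was 12.73, 12.81 and 12.74 in room air and 12.67, 12.54 and 12.72 in hyperoxia. The ages did not overlap, and Rps19 fell by 0.46 ± 0.08 (adjusted p = 0.000422, limma). Rps10 (1434854_a_at), which marks collided ribosomes when ubiquitin is attached to it, fell by 0.42 ± 0.09 (adjusted p = 0.00263). In room air alone this probe set differed by -0.40 ± 0.13 (adjusted p = 0.0539, limma) and was not called. The brightest Rps10 probe set (1438723_a_at) differed by -0.17 ± 0.11 in room air (adjusted p = 0.381, limma). Its hyperoxia means were 14.25 at day 7 and 14.3 at day 12. Rps20 (1456373_x_at) fell by 0.31 ± 0.08 (adjusted p = 0.00791) and Rps28 (1454778_x_at) by 0.25 ± 0.06 (adjusted p = 0.00642), both with separate arrays at the 2 ages. Rps28 reached the threshold with 1 of its 3 probe sets. Another bright Rps20 probe set (1456436_x_at) differed by -0.06 ± 0.14 in room air (adjusted p = 0.848, limma). The hyperoxia means of that probe set were 13.41 at day 7 and 13.3 at day 12.

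Of the large subunit, Rpl35, which sits beside the tunnel where the new peptide leaves, had the most probe sets that fell. Its probe set 1416243_a_at was 13.37, 13.50 and 13.43 in room air and 13.46, 13.46 and 13.45 in hyperoxia at day 7. Over the 6 arrays of day 12 it ranged from 12.92 to 13.13. Every value of day 12 was below every value of day 7, with a fall of 0.40 ± 0.06 (adjusted p = 0.00012, limma). Of 6 tested Rpl35 probe sets, 4 fell, by 0.31 to 0.47, and the other 2 had differences of -0.28 and -0.21.

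Rpl13a, which also acts outside the ribosome in silencing of inflammatory messenger RNAs, was 13.04, 13.26 and 13.44 in room air and 13.25, 13.30 and 13.31 in hyperoxia at day 7 on probe set 1455001_x_at. It was 12.82, 12.86 and 12.94 in room air and 12.72, 12.91 and 12.71 in hyperoxia at day 12. The ages did not overlap and the fall was 0.44 ± 0.08 (adjusted p = 0.000309, limma). Of its 4 tested probe sets 2 fell, and the brightest of them (1455485_x_at) had a difference of -0.17 ± 0.07 (adjusted p = 0.0858), so the size depended on the probe set.

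**Figure D3:**
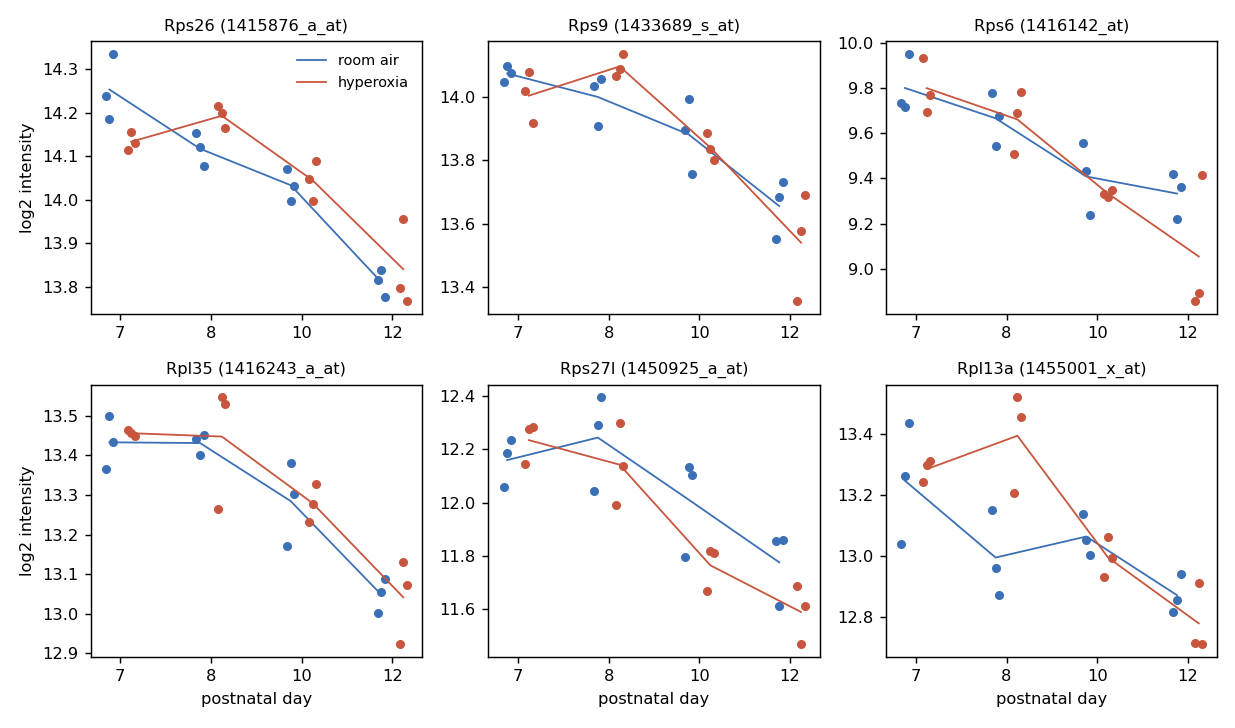
Log2 intensity of the 6 named ribosomal protein probe sets with the lowest p for age (Rps26, Rps9, Rps6, Rpl35, Rps27l and Rpl13a) on each array, by postnatal day; points are arrays, lines join the means of the 3 arrays of a group, and each panel has its own scale. In all 6 panels the day 12 arrays lie below the day 7 arrays, for example Rps26, at 14.11 to 14.34 at day 7 and 13.77 to 13.96 at day 12.

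By subunit, 16 of 40 small subunit probe sets fell, with a median difference of -0.21, and 13 of 36 large subunit probe sets fell, with a median of -0.17. Whether the subunits differ was not tested. Rplp0, the base of the stalk that recruits elongation factors, was 14.38 to 14.53 on the day 7 arrays and 14.04 to 14.36 on those of day 12. It fell by 0.24 ± 0.08 (adjusted p = 0.0347, limma), a call that was lost in 13 of 40 alternative settings. Rplp2, its partner in the stalk, had a difference of -0.09 ± 0.08 (adjusted p = 0.424). Rpl11, which with Rpl5 and the 5S RNA can bind and inhibit Mdm2, was 13.49 to 14.01 at day 7 and 13.30 to 13.94 at day 12, with overlapping arrays and a difference of -0.21 ± 0.13 (adjusted p = 0.279).

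The paralogs, genes related by duplication to a subunit gene, were not all alike. Rps27l, the p53-induced relative of Rps27, fell on all 3 of its probe sets. On 1450925_a_at it was 12.06, 12.19 and 12.23 in room air and 12.14, 12.28 and 12.28 in hyperoxia at day 7, and 11.86, 11.61 and 11.86 in room air and 11.69, 11.47 and 11.61 in hyperoxia at day 12. The ages did not overlap, and the fall was 0.51 ± 0.08 (adjusted p = 0.000144, limma). The other Rps27l probe sets fell by 0.60 ± 0.11 (1423254_x_at) and 0.36 ± 0.10 (1435429_x_at).

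Rps27 itself was read by a single tested probe set (1460699_at), whose difference of 0.16 ± 0.25 (adjusted p = 0.726) has an interval from -0.38 to 0.69. Rpl7l1, a relative of Rpl7, fell by 0.27 ± 0.09 on 1452049_at (adjusted p = 0.0485), a call lost in 26 of 40 alternative settings, and differed by -0.22 ± 0.08 on 1426386_at (adjusted p = 0.0534). Rpl22l1 had a difference of -0.16 ± 0.15 (adjusted p = 0.476) and Rps4l of -0.04 ± 0.10 (adjusted p = 0.826), and the arrays of both ages overlapped in each.

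Probe sets of 1 gene often disagreed. Of 20 genes with several tested probe sets, all probe sets fell in 2, some fell in 12 and none in 6, and in 5 the differences had both signs. Rps24 had 2 probe sets that fell, by 0.33 and 0.29, and 2 with differences of -0.04 (1453362_x_at) and 0.00 (1436064_x_at). Rpl7 fell by 0.23 ± 0.06 on 1415979_x_at and differed by 0.09 ± 0.18 on 1426163_x_at. Rpl41 differed by -0.14 ± 0.08 on its brightest probe set and by 0.10 ± 0.20 on its dimmest tested one (1454639_x_at). Rps29 differed by -0.13, -0.10 and 0.01.

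By the brightest probe set of each gene, 19 of 46 genes fell, with a median difference of -0.16. The falls were not confined to a kind of probe set: 12 of 27 ending in _a_at fell, 6 of 19 ending in _at, 1 of 2 ending in _s_at and 15 of 38 ending in _x_at. Without the filter, 38 of all 100 probe sets fell and 1 rose, with no share over the whole array set beside them here. The one that rose was Rps10 1436384_at, by 0.65 ± 0.11 (adjusted p = 0.00035), a dim probe set with 6 of its 24 values at the floor.

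**Figure D4:**
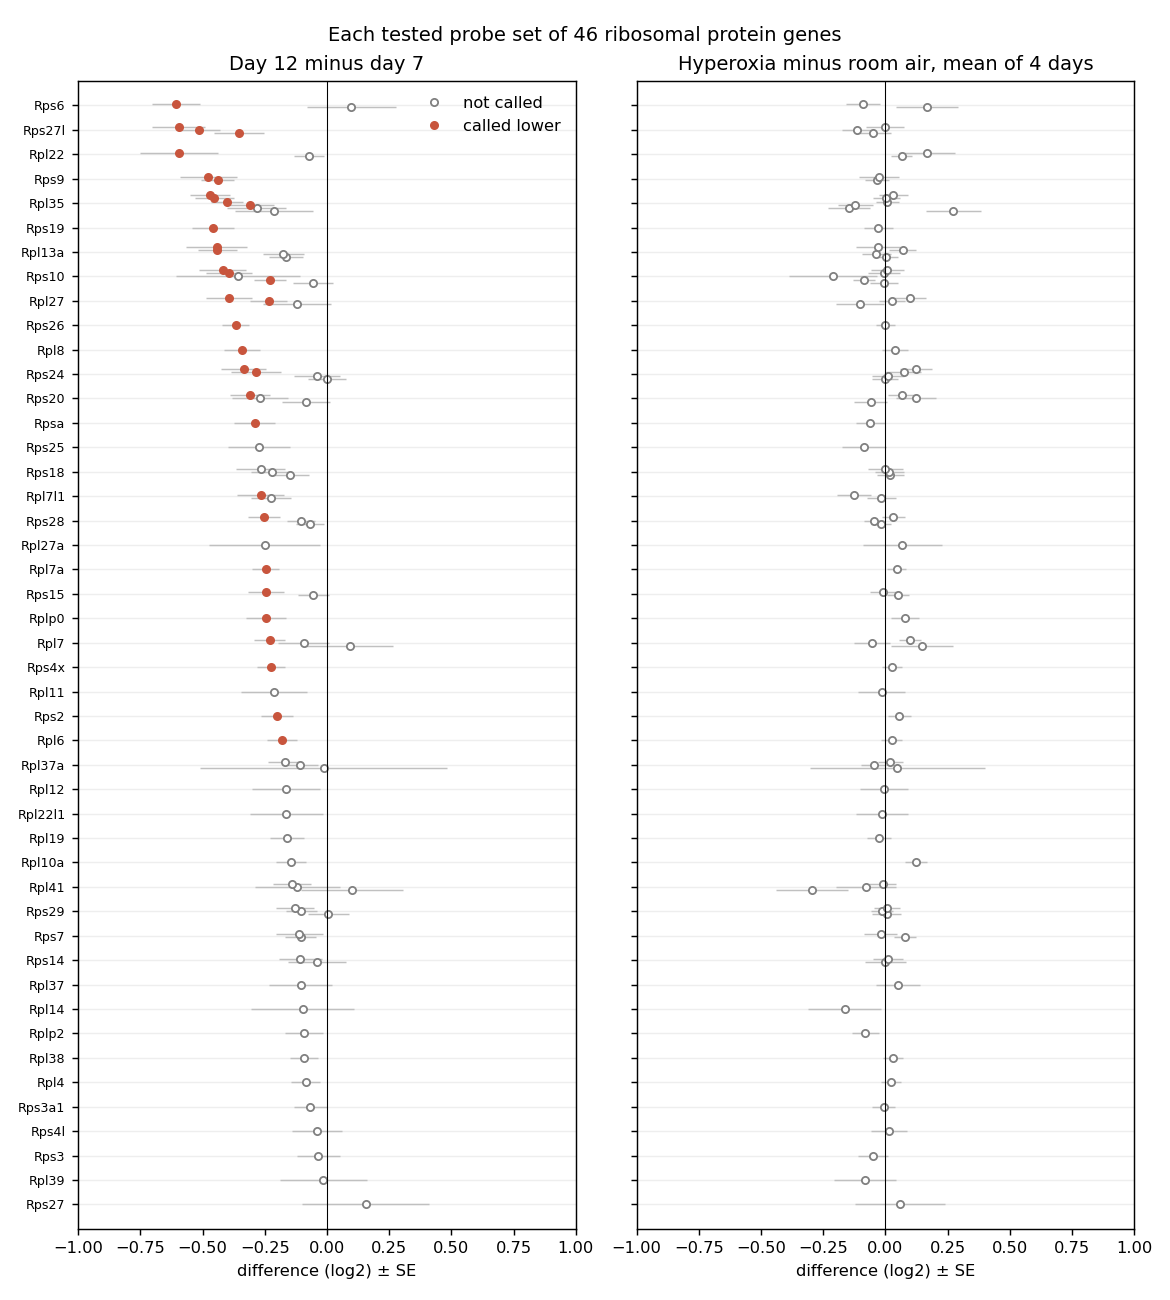
Log2 difference ± SE of each tested probe set of 46 ribosomal protein genes, genes ordered by their lowest difference with age; left, day 12 minus day 7, right, hyperoxia minus room air averaged over 4 days; filled points passed an adjusted p of 0.05. At left 34 points are filled, all below 0; at right none is.

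Because most of these probe sets are very bright, they were set beside other bright probe sets. Of 938 probe sets outside the family with a mean of at least 13, 15.8% fell and 15.6% rose with age, and their median difference was -0.04. Of the 57 ribosomal protein probe sets above that mean, 23 fell, with a median of -0.17. Of the 29 below it, 11 fell, with a median of -0.25. When the arrays were centred on the median of the probe sets outside the family, in place of quantile normalization, 20 of 86 fell, the median was -0.16, and 9.67% of all probe sets fell. The fall was therefore smaller in count and similar in size under that scaling.

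The decline with age was measured separately in room air and in hyperoxia, on arrays that are not shared. In room air 16 of 86 fell and 0 rose (5.21% of all probe sets fell), with a median of -0.18 and 81 of 86 negative. Rpl22 (1416603_at), a large subunit protein that mice can live without, was 12.63, 12.67 and 12.92 at day 7 and 12.01, 12.42 and 11.69 at day 12. These arrays did not overlap and the fall was 0.70 ± 0.22 (adjusted p = 0.0465, limma), a call lost in 23 of 40 alternative settings. Its other probe set (1448398_s_at) had a difference of -0.14 ± 0.09 in room air (adjusted p = 0.309, limma) and of -0.07 ± 0.06 over both conditions.

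Rpl27 (1453096_x_at) was 12.06, 12.12 and 12.51 at day 7 and 11.70, 11.62 and 11.69 at day 12 in room air. It fell by 0.56 ± 0.13 (adjusted p = 0.00651, limma). Other tested Rpl27 probe sets were not called in room air. The brighter 1416099_at differed by -0.22 ± 0.11 (adjusted p = 0.205, limma) and 1448217_a_at by -0.20 ± 0.19 (adjusted p = 0.562, limma). Rpl8, which lies close to the peptidyl transferase centre, fell by 0.41 ± 0.10 (adjusted p = 0.0122), Rps6 by 0.47, Rps10 (1456497_x_at) by 0.46, Rps26 by 0.44, Rps9 by 0.42, Rpl35 by 0.39, Rps27l by 0.38 and Rpl13a by 0.38, each with separate arrays. The call of Rps27l in room air was lost in 12 of 39 alternative settings, and those of the other genes in this paragraph in 1 to 7. The room air count depended on single arrays: it was 4 without room air day 7 replicate 3, 9 without replicate 2 of day 7, and 9, 7 and 8 without replicates 1, 2 and 3 of day 12.

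In hyperoxia 14 of 86 fell and 0 rose (6.64% of all probe sets fell), with a median of -0.22 and 73 of 86 negative. Rps27l (1423254_x_at) was 12.20, 12.36 and 12.25 at day 7 and 11.38, 11.28 and 11.55 at day 12. Its arrays stood well apart and it fell by 0.86 ± 0.15 (adjusted p = 0.000622, limma). Rps6 fell by 0.75 ± 0.13 (adjusted p = 0.000877). Rpsa, also known as the laminin receptor precursor, was 14.09, 14.17 and 13.95 at day 7 and 13.51, 13.73 and 13.64 at day 12, with a fall of 0.44 ± 0.12 (adjusted p = 0.0151). Rpl35 (1455950_x_at) fell by 0.55, Rps19 by 0.55, Rpl13a by 0.51, Rps9 by 0.46, Rps10 by 0.44, Rps15 (1416088_a_at), whose tail reaches the decoding site, by 0.35 and Rps26 by 0.29. The calls of Rps10 and Rps15 in hyperoxia were lost in 10 of 39 alternative settings each. Those of the other genes named for hyperoxia were lost in 1 to 6. The brighter Rps15 probe set (1416089_at) differed by -0.04 ± 0.09 in hyperoxia (adjusted p = 0.826, limma) and was not called. In room air that probe set differed by -0.07 ± 0.09 (adjusted p = 0.691, limma).

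Of the probe sets that fell, 10 fell in both conditions, which is 62.5% of those in room air and 71.4% of those in hyperoxia. Over all probe sets 489 fell in both, or 59.3% and 46.5%. The difference was negative in both conditions in 70 of 86. Across the 86 probe sets, the differences in the 2 conditions had a Pearson correlation of 0.45, against 0.67 across all 15838. Probe sets are not independent replicates, and the ribosomal protein differences span a narrower range. The test of whether the decline differs between the conditions called 0 of 86 (0% of all probe sets), with a lowest adjusted p of 0.742. That value belongs to Rps27l 1423254_x_at, for which the difference in hyperoxia minus that in room air was -0.53 ± 0.21. The other lowest unadjusted values were Rps28 1451101_a_at, at 0.25 ± 0.11 (adjusted p = 0.771), and Rpsa, at -0.31 ± 0.17 (adjusted p = 0.816).

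The steps between neighbouring ages had few calls. From day 7 to day 8, 0 of 86 were called (0% of all probe sets fell) and the median was -0.03, with 4 at an unadjusted p under 0.05 in limma. Rpl27 (1453096_x_at) differed by -0.25 ± 0.09, Rps24 (1456628_x_at) by -0.23 ± 0.09 and Rpl7 (1415979_x_at) by -0.18 ± 0.06, all with an adjusted p of 0.828. From day 8 to day 10, 0 were called (1.13% of all fell), the median was -0.06 and 9 had an unadjusted p under 0.05. The count was 1 without room air day 8 replicate 1 or hyperoxia day 8 replicate 1. The lowest p was that of Rps27l (1450925_a_at), at -0.31 ± 0.08 (adjusted p = 0.0585), followed by Rps6, at -0.29 ± 0.10 (adjusted p = 0.12), and Rps9, at -0.19 ± 0.07 (adjusted p = 0.173).

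From day 10 to day 12, 4 of 86 fell (0.789% of all fell) and the median was -0.13, with 73 of 86 negative. Rps10 (1456497_x_at) was 14.43, 14.02 and 13.97 in room air and 14.37, 14.17 and 14.35 in hyperoxia at day 10, and 13.82, 13.64 and 13.84 in room air and 13.66, 13.86 and 13.92 in hyperoxia at day 12. It fell by 0.43 ± 0.09 (adjusted p = 0.0212, limma), a call lost in 6 of 39 alternative settings. On the brightest Rps10 probe set (1438723_a_at) the room air means were 14.16 at day 10 and 14.22 at day 12. Those of hyperoxia were 14.31 and 14.3. Rpl8 was 14.04 to 14.23 at day 10 and 13.66 to 13.89 at day 12, a gap with no overlap, and fell by 0.34 ± 0.07 (adjusted p = 0.0234), a call lost in 4 of 40.

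Rpl35 made up the rest, with 1455950_x_at falling by 0.32 ± 0.08 (adjusted p = 0.0457), a call lost in 25 of 39 alternative settings, and 1434231_x_at, whose arrays overlap, by 0.34 ± 0.08 (adjusted p = 0.0401). The count of this last step rested on single arrays. It was 0 without hyperoxia day 10 replicate 3, and 1 without replicate 1 of that group, without room air day 10 replicate 1 or 2, or without room air day 12 replicate 2. It was 2 without room air day 10 replicate 3, room air day 12 replicate 3, hyperoxia day 12 replicate 1, room air day 8 replicate 2 or hyperoxia day 7 replicate 3. Whether the steps differ from each other was not tested.

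Between hyperoxia and room air, no ribosomal protein probe set passed the test at any age, in either direction. The counts called were 0 of 86 at day 7 (0.0631% of all probe sets, called in either direction), 0 at day 8 (0.0821%), 0 at day 10 (0.0631%), 0 at day 12 (0.0126%) and 0 for the average of the 4 days (0.492%). At an unadjusted p under 0.05 in limma, 0, 3, 4, 2 and 3 of 86 passed in these comparisons. The medians were -0.01, 0.03, 0.01, -0.01 and 0.00 on the log2 scale. Their signs depended on scaling: with the deposited scaling centred on each array's median they were -0.03, 0.13, -0.14, -0.14 and -0.05, where the medians of all probe sets were 0.05, 0.04, -0.10, -0.06 and -0.01. An F test of whether the hyperoxia effect varied with the day called 0 of 86 (0% of all probe sets), with a lowest adjusted p of 0.721 and 1 probe set at an unadjusted p under 0.05.

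The average over the days sets limits on a common effect. Of 86 differences, 42 were negative, and the range was -0.29 to 0.27 with a median SE of 0.06. The 95% interval lay within 0.25 of 0 on either side for 67 probe sets and within 0.5 for 82. Rpl10a had the lowest p. It was 14.44, 14.24 and 14.45 in room air and 14.57, 14.74 and 14.54 in hyperoxia at day 8, and 14.41, 14.42 and 14.32 in room air and 14.56, 14.48 and 14.52 in hyperoxia at day 12. The arrays did not overlap at these ages but did at days 7 and 10, and the averaged difference was 0.12 ± 0.04 (adjusted p = 0.364). Rpl35 1454833_at, the dimmest probe set of that gene, differed by 0.27 ± 0.11 (adjusted p = 0.474) and Rpl7 1415979_x_at by 0.10 ± 0.04 (adjusted p = 0.531).

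Single ages gave wider intervals and no called difference. At day 7 the lowest p values were those of Rpl39, at -0.48 ± 0.25, Rplp2, at -0.19 ± 0.11, and Rps28 1451101_a_at, at -0.14 ± 0.08, each with an adjusted p of 1.0. At day 8 Rpl13a 1455001_x_at was 13.15, 12.96 and 12.87 in room air and 13.21, 13.52 and 13.46 in hyperoxia, separate by a narrow gap, with a difference of 0.40 ± 0.11 (adjusted p = 0.61). Rpl10a differed by 0.24 ± 0.09 (adjusted p = 0.944) and Rpl35 1454833_at by 0.54 ± 0.22 (adjusted p = 0.964) at that age.

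At day 10 the dim Rpl41 probe set 1454639_x_at was 10.12, 9.60 and 9.53 in room air and 9.19, 8.35 and 9.25 in hyperoxia, a difference of -0.82 ± 0.29 (adjusted p = 0.327). All 3 hyperoxia arrays lay below those of room air. Rpl27 1453096_x_at differed by 0.31 ± 0.13 (adjusted p = 0.413) and Rps24 1428530_x_at by 0.35 ± 0.14 (adjusted p = 0.397). At day 12 Rps27l 1423254_x_at differed by -0.34 ± 0.15 (adjusted p = 0.53), Rps6 by -0.28 ± 0.13 (adjusted p = 0.577) and Rpl22 1448398_s_at by 0.20 ± 0.09 (adjusted p = 0.53).

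The stalk, 5S and paralog genes showed no called difference with oxygen either. Averaged over the days, Rplp0 differed by 0.08 ± 0.06, Rplp2 by -0.08 ± 0.05, Rpl11 by -0.02 ± 0.09, Rpl22l1 by -0.01 ± 0.10 and Rps4l by 0.02 ± 0.07. The Rps27l probe sets differed by -0.11, -0.05 and 0.00 and those of Rpl7l1 by -0.13 and -0.02. At day 12 all 7 paralog probe sets had negative differences, with a median of -0.19 and a range of -0.34 to -0.05, and none was called. Several of the 7 read the same gene and are not separate evidence. At that age 55.8% of the 86 ribosomal protein probe sets and 50.8% of all probe sets had negative differences. By the same fit, HIF targets, the genes that low oxygen induces, fell with hyperoxia in 13 of 23 measured genes and rose in 0, with a median of -0.34, and endothelial markers fell in 6 of 14, where 0.529% of all genes fell and 0.0108% rose.

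The other machinery of translation was counted by 1 probe set per gene, the brightest. Counted in this way, 12.3% of all 9266 genes fell and 13% rose from day 7 to day 12, with a median of -0.03, and the lists are to be read against these shares. Of 59 measured ribosome biogenesis genes, 14 (23.7%) fell and 1 rose, with a median of -0.17. Nop58, a core protein of the box C/D particles that methylate ribosomal RNA, fell by 0.63 ± 0.11 (adjusted p = 0.000248, limma), and Pwp1 fell by 0.30 ± 0.06. Rrp1b, a nucleolar protein, rose by 0.79 ± 0.11. Of 31 initiation factors 7 (22.6%) fell and 0 rose, with a median of -0.09. Among them Eif1ax, which helps to scan for the start codon, fell by 0.46 ± 0.08, and the eIF3 subunits Eif3l and Eif3a fell by 0.36 ± 0.07 each.

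Of 12 elongation and termination factors, 3 (25%) fell and 1 rose. Gspt1, the release factor eRF3a, fell by 0.53 ± 0.12 and Eef1b2 by 0.32 ± 0.09. Eef1a2, the form of the elongation factor that replaces Eef1a1 in mature neurons and muscle, rose by 0.77 ± 0.14 (adjusted p = 0.000501, limma). Of 13 ribosome-associated genes outside the naming pattern 6 (46.2%) fell, among them Btf3, by 0.33 ± 0.08, and Snhg1, by 0.36 ± 0.09, and 2 rose, among them Snhg8, by 0.41 ± 0.07.

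The ribosome of mitochondria has its own proteins, and of 78 measured genes 7 (8.97%) fell and 1 rose with age, with a median of -0.07. The share that fell was no higher than the 12.3% of all genes. Mrpl52 fell by 0.63 ± 0.10, Mrps15 by 0.50 ± 0.10 and Gadd45gip1 by 0.44 ± 0.09. Of 14 genes of growth control 2 (14.3%) fell, a share near that of all genes. Mycl fell by 1.97 ± 0.25 (adjusted p = 7.35e-06) and Mycn fell by 0.73 ± 0.09 (adjusted p = 8.9e-06), both Myc family factors, known activators of ribosomal protein and ribosome biogenesis genes. Of 11 p53 targets of ribosomal stress 2 (18.2%) fell, Btg2 by 0.92 ± 0.12 and Trp53inp1 by 0.74 ± 0.12, and 3 (27.3%) rose, Gadd45a among them by 0.70 ± 0.13. None of the genes in these 7 lists was called for oxygen averaged over the days.

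**Figure D5:**
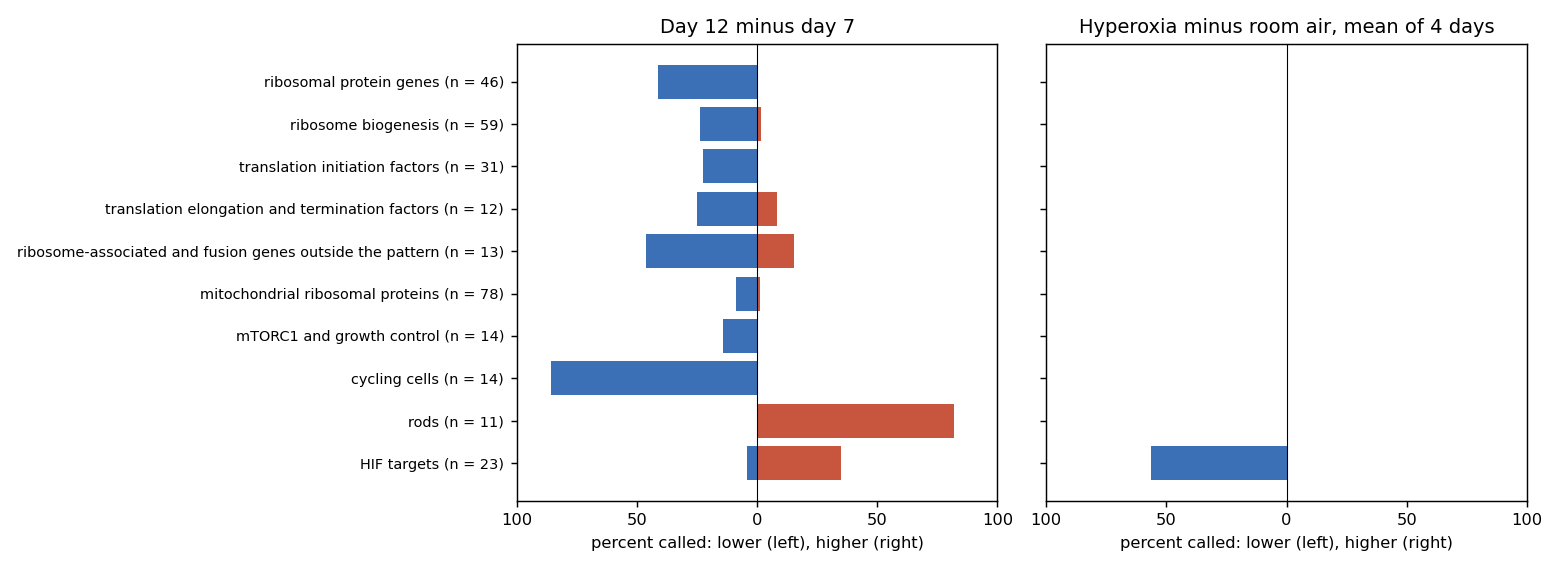
Percent of measured genes called lower (blue, to the left) or higher (red, to the right) at an adjusted p of 0.05, by gene list, with 1 probe set per gene; left, day 12 minus day 7, right, hyperoxia minus room air averaged over 4 days. Of 46 ribosomal protein genes 19 were lower with age, and HIF targets are the only list shown with calls for oxygen, 13 of 23.

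Cell type markers moved with age on the same arrays. Of 14 markers of cycling cells 12 fell from day 7 to day 12, with a median of -1.07, and their mean log2 intensity went from 8.92 to 9.14 at day 7 to 8.20 to 8.46 at day 12. Of 11 rod markers 9 rose, and 7 of 11 Müller glia markers and 5 of 8 ganglion cell markers rose. Of 9 pigment epithelium markers 5 rose, with a score, the mean log2 intensity of the list, of at most 10.5 at day 7 and at least 10.1 at day 12, and lens markers ranged from 7.77 to 13.4 over the arrays without a called difference. Of 8 microglial markers 1 fell with age, of 2 measured muscle genes 1 rose, and of 2 measured erythroid genes 1 was lower in hyperoxia averaged over the days. With the lens and pigment scores as covariates, 15 of 86 ribosomal protein probe sets fell with age, 4.82% of all did, and the median was -0.22. The part of cycling cells, rods and glia in the decline was not tested. The RNA quality measure, the 3′ over 5′ signal of control transcripts, was -0.14 to 0.07 over all arrays, and with it as a covariate 34 of 86 fell. The share of all probe sets that fell in that fit is not given here.

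Falls with age were counted in genes with and without a pyrimidine run at the start. Of 18 tested genes with the run 6 fell by their brightest probe set, with a median of -0.16, and of 22 without it 10 fell, with a median of -0.19. A run counted here lies at an annotated start and need not be part of the transcript, as in Rps27l. Whether the 2 groups differ was not tested. The arrays measure the amount of messenger RNA, not its translation, which is the step the tract is known to control.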

How the data were processed

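The authors deposited a table of linear intensity with 22690 probe sets, 64 of them controls. Software and scaling: not given in the sources used here. The array means after trimming 2% at each end lay between 1500.35 and 1500.4. Scanner files were not analysed here. The deposited intensities were taken to log2 and quantile normalized. The normalized values were then raised to a floor at their 20th percentile (a signal of 137), and controls were removed. Probe sets with means under the 30th percentile were left out, leaving 15838, with 0.349% of values at the floor. Near the floor a difference comes out too small. Gene symbols came from the platform annotation, in which 20380 probe sets had 1 symbol, 691 several and 1555 none. All 48 ribosomal protein genes were found by identifier in RefSeq, and 0 symbols differed.

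Contrasts were tested in 1 limma fit (version 3.58.1, R 4.3.3) over 24 arrays with 16 residual and 3.54 prior degrees of freedom. A probe set fell or rose at a Benjamini-Hochberg adjusted p under 0.05 over all tested probe sets. Values after ± are standard errors unless said otherwise. Members and gene lists were chosen with earlier results of these data known. Named were, for each comparison, up to 10 called falls or rises with separate arrays, each gene once by its lowest p, otherwise the 3 lowest p values; stalk, 5S and paralog genes; the brightest and dimmest probe sets; probe sets of opposite sign; and up to 3 called genes per list. Genes named outside this rule, such as those under the filter, were picked with their values in view. The fit was tested on simulated data. Alternatives covered scaling, floor, filter, the arrays fitted, a replicate block, moderation, probe sets per gene, covariates and single arrays. Figures used matplotlib 3.10.9 in Python 3.11.15. The number of arrays limits the precision.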

Additional observations from a re-analysis of the deposited data

How the results depend on the processing

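The counts of ribosomal protein probe sets called for oxygen (each age, the average, the interaction and the F test) were 0 wherever given. There were 40 alternatives, 24 of which left out a single array. The fit of a comparison's own arrays gave no value for the average or the F test. The age counts were 34 (average of both conditions), 16 (room air), 14 (hyperoxia), 0 (day 8 to 10) and 4 (day 10 to 12). With arrays centred on the median the counts were 20, 3 in room air and 7 for day 10 to 12; centred on probe sets outside the family, 20, 5 in room air and 9 in hyperoxia. A floor at the 40th percentile or no filter gave 22 in hyperoxia, 1 for day 8 to 10 and 7 for day 10 to 12; a filter at the 50th percentile, or moderation with trend and robust settings, gave 1 and 7 for these steps. A fit of the comparison's own arrays gave 1 in room air, 2 in hyperoxia and 0 for day 10 to 12. By the brightest probe set per gene the counts were 19, 10 in room air and 8 in hyperoxia, and by the mean per gene 20, 10 in room air and 2 for day 10 to 12. Without probe sets ending in _x_at they were 19, 9 in room air and 1 for day 10 to 12; these last 3 settings have fewer probe sets. With lens and pigment covariates they were 15, 7 in room air, 3 in hyperoxia and 1 for day 10 to 12. Leaving out the 2 arrays farthest from their groups gave 1 for day 8 to 10. Leaving out single arrays gave 28 to 36, 4 to 17 in room air, 12 to 14 in hyperoxia, 0 to 1 for day 8 to 10 and 0 to 5 for day 10 to 12. With the replicate number as a block the counts were 37, 1 for day 8 to 10 and 7 for day 10 to 12. Only 5 of 12 day-matched pairs had a correlation over 0.1, so the numbers were not taken to pair the samples. The day 12 pairs, at 0.45, 0.23 and 0.39, were all among these 5, and pairing at that age alone was not tested. Apart from the smaller sets of probe sets and arrays, the cause of these changes was not tested. Shares of all probe sets were given above only for centring outside the family and for the lens and pigment covariates. For most other settings a change in these counts cannot be told from a change in calls over all probe sets. The median age difference was negative under all scalings. Of the named results, the age falls of Rps9, Rps26, Rps19, Rpl13a, Rpl35 and Rps27l (1450925_a_at), averaged over the conditions, kept their call in every setting that gave a value. The setting with the brightest probe set per gene gave none for the named probe sets of Rpl13a, Rpl35 and Rps27l, because another was brighter. For Rpl13a that brighter probe set did not pass in the main fit.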
